A study of Mus musculus with 24 samples.

Results

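The interferon-stimulated genes are 34 genes taken by name, out of 24958 named genes measured in the left ventricle (LV) of old mice. The genes were chosen for what they are known to respond to and by no cut on a value. Earlier results of these data were known when they were chosen. All 34 passed the filter on low values, with 13796 genes passing in all. By role the list holds 4 RNA and DNA sensors, 3 transcription factors, 7 genes of ISG15, ubiquitin or ADP-ribose enzymes, 3 members of the IFIT family, 4 of the OAS family, 3 Mx or guanylate-binding GTPases and 10 other effectors. The RNA came from the free wall of the LV of 24-month-old C57BL6/J mice and was sequenced as bulk mRNA in 24 libraries, 4 in each of 6 groups, and each library was a pool of RNA from 2 mice. Females with intact ovaries and no treatment were controls (Ctrl), and females ovariectomized at 12 months are called Ovx. Both kinds of females were also infused with angiotensin II, the pressor peptide of the renin-angiotensin system, for 4 weeks before euthanasia (Ctrl + AngII and Ovx + AngII). Males were untreated with intact gonads (male Ctrl) or were gonadectomized at 12 months (male Gx), and no male received AngII. The study's methods mention sham surgery without a vehicle-filled pump, so that untreated mice carried no pump. The n of 4 in a group counts pools and not mice, so that p-values measure the spread between pools.

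Interferons are cytokines released by cells that sense foreign or misplaced nucleic acid. Type I interferons bind a receptor on nearly every cell, whose kinases JAK1 and TYK2 act on transcription factors. A complex that holds STAT2 and IRF9 then binds a promoter element called the interferon-stimulated response element (ISRE). Interferon gamma, made chiefly by T and NK cells, acts through another element, the GAS, and the genes induced by both types overlap. Resident macrophages, endothelium, fibroblasts and cardiomyocytes of the heart can all express these genes. In bulk tissue a lower value can come from fewer cells of a type or from less RNA per cell, which cannot be told apart.

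Promoter sequences of RefSeq (build GRCm38.p6, which is mm10) were available for 24 of the 34 members, each covering 250 bases before to 50 bases after a transcription start. The ISRE core was searched as GAAA, 2 bases of any kind and GAAA, on both strands. It was found in the promoters of 12 of the 24 members (50.0%), against 1079 of the 27025 genes with a promoter (3.99%). The longer form, in which C and T follow the core, was found in 7 of 24 members (29.2%) and in 0.303% of all genes, and the GAS core (TTC, 3 bases and GAA) in 5 members (20.8%) and in 9.55% of all genes. The longer form contains the core, and a match describes the letters only. The 6 windows printed here belong to members whose values are given below. They show the core nearest the start in capitals with 12 bases on each side, read 5′ to 3′ on the strand that carries the core.
Isg15: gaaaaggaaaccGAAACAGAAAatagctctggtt
Ifit1: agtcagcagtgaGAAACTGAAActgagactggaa
Ifit3: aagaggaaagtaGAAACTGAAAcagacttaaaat
Stat2: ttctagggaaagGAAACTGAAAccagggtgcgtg
Gbp2: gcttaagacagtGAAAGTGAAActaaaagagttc
Rsad2: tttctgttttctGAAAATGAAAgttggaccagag
The Isg15 window lies at chr4:156200863-156200896 on the minus strand, with the core in capitals 66 to 57 bases before the start. Further cores begin 78 and 72 bases before the start of Isg15, in the printed flank. Ifit1 and Ifit3 also hold a further core, beginning 104 and 156 bases before their starts and not marked here. The Ifit1 window (chr19:34640792-34640825, minus strand) has its core 85 to 76 bases before the start, and the Ifit3 window (chr19:34583395-34583428, minus strand) 122 to 113 bases before it. The Stat2 window (chr10:128270264-128270297, minus strand) is the most distal of the 6, with its core 222 to 213 bases before the start. The Gbp2 window (chr3:142620592-142620625, minus strand) has its core 59 to 50 bases before the start, and the Rsad2 window (chr12:26456551-26456584, plus strand) 120 to 111 bases before it. All 6 cores in capitals lie in the flank upstream of the annotated transcript, and those of Ifit1, Ifit3 and Stat2 are identical in sequence.

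The labels were checked on genes that are no members. Xist, the RNA of the inactive X chromosome, was at 5480 to 10351 in the female libraries and at no more than 35.3 in the male ones, and Nppa, the atrial natriuretic peptide gene induced by load, was at 12279 or more in every library of the AngII groups and at 4896 or less in every untreated female library. The ventricular myosin light chain gene Myl2 was at 157173 to 248521 and the atrial genes Myl7 and Sln at no more than 14.4 and 10.2. The Y-linked gene Ddx3y was at 1044 to 1839 in male libraries and reached 31.6 in the Ctrl group, while it was listed at 0 in the other female groups. Eif2s3y and Kdm5d, also Y-linked, reached 22.7 and 11.9 in the Ctrl group and were likewise at 0 in the other female groups. The source of this signal in Ctrl was not tested. Values of a library summed to 19358943 to 25889811 with 15231 to 16604 genes above 0, and the reads behind a single value could not be recovered from them, so errors are given as the spread between libraries. Levels below are these normalized values after rescaling to a common scale, and differences are on the log2(value + 1) scale, on which changes of low genes are understated.

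Ctrl library 39 stood apart from the other 3 libraries of its group. It had the highest value of the 4 Ctrl libraries for 30 of the 34 members and the lowest for none, and for 14 members the highest value of all 24 libraries. Its value was 1.72 times the mean of the other 3 Ctrl libraries in the median over members, from 0.756 times for Mx2 to 5.09 times for Zbp1. Over all genes tested this ratio had a median of 0.994, and 29.4% of them were higher in library 39 than in the other 3. Genes that answer chiefly to interferon gamma stood further out in this library. All 22 of the interferon-gamma type and antigen presentation genes were above the other 3 Ctrl libraries, by a median of 2.87 times, and the chemokine gene Cxcl9, which draws T cells, was at 962 against 106, 128 and 115. Markers of blood and leukocytes were high as well: 3 of 3 neutrophil markers (median 4.29 times), 7 of 9 lymphocyte markers (3.49 times), 4 of 5 erythroid genes (2.39 times) and 14 of 15 macrophage markers (1.56 times). Dendritic cell markers did not follow, with 1 of 4 above and 2 below the other 3 libraries (median 0.849 times). Endothelial markers stood at a median of 1.12 times, fibroblast markers at 1.10 times and ventricular cardiomyocyte markers at 0.903 times. Their part in the member values of library 39 was not tested. Since this library is 1 of 4 in the reference group, each comparison that uses Ctrl is given with and without it. Of the Ctrl libraries left without it, 37 and 51 held the low values of Y-linked genes given above.

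**Figure D1:**
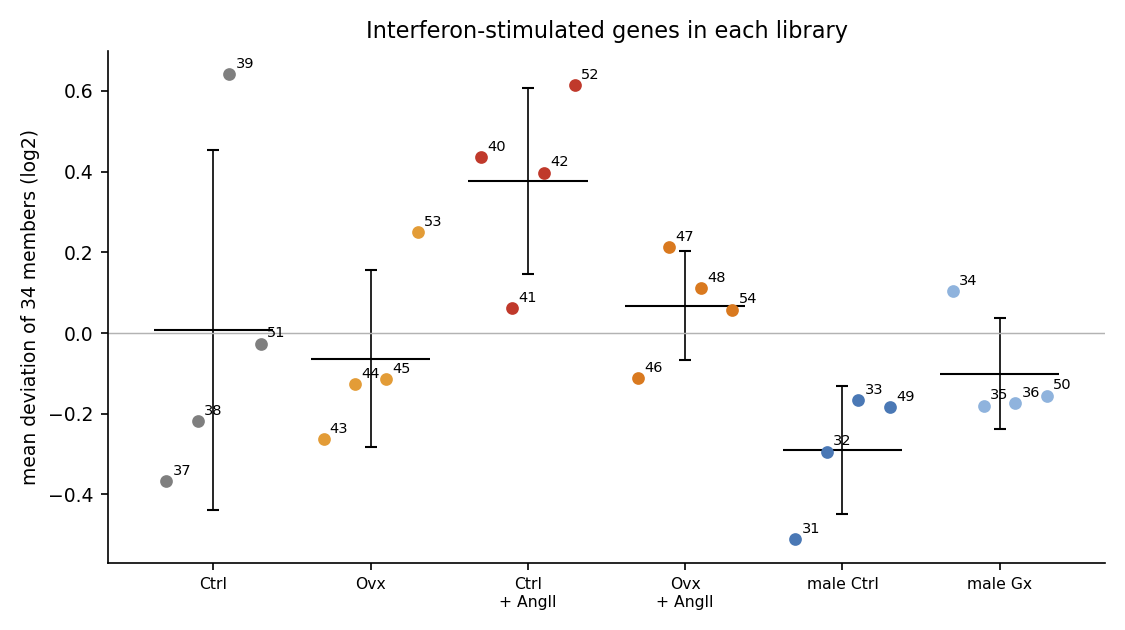
Mean log2 deviation of the 34 members from their means over 24 libraries (vertical axis) for each library (points with library numbers) by group (horizontal axis); long lines are group means and bars are SD over 4 libraries. Ctrl library 39 lies at 0.64, beside Ctrl + AngII library 52 at 0.61, while the other Ctrl libraries lie between -0.37 and -0.03.

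Averaged over the 34 members, the deviation of a library from the mean of all 24 was 0.38 ± 0.23 in Ctrl + AngII, 0.07 ± 0.14 in Ovx + AngII, 0.01 ± 0.45 in Ctrl and -0.06 ± 0.22 in Ovx (log2, SD, n = 4). It was -0.10 ± 0.14 in male Gx and -0.29 ± 0.16 in male Ctrl. The spread inside a group was thus as wide as most of the distances between groups. Ctrl libraries 37, 38 and 51 lay at -0.37, -0.22 and -0.03, and library 39 at 0.64. In Ctrl + AngII libraries 40, 42 and 52 lay at 0.44, 0.40 and 0.61, and library 41 at 0.06, with the lowest value of its group for 29 of 34 members. Library 52 had the highest value of all 24 libraries for 11 members. In Ovx, library 53 lay at 0.25 and the other 3 at -0.26 to -0.11, so that the members were high or low together from library to library inside groups too.

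**Figure D2:**
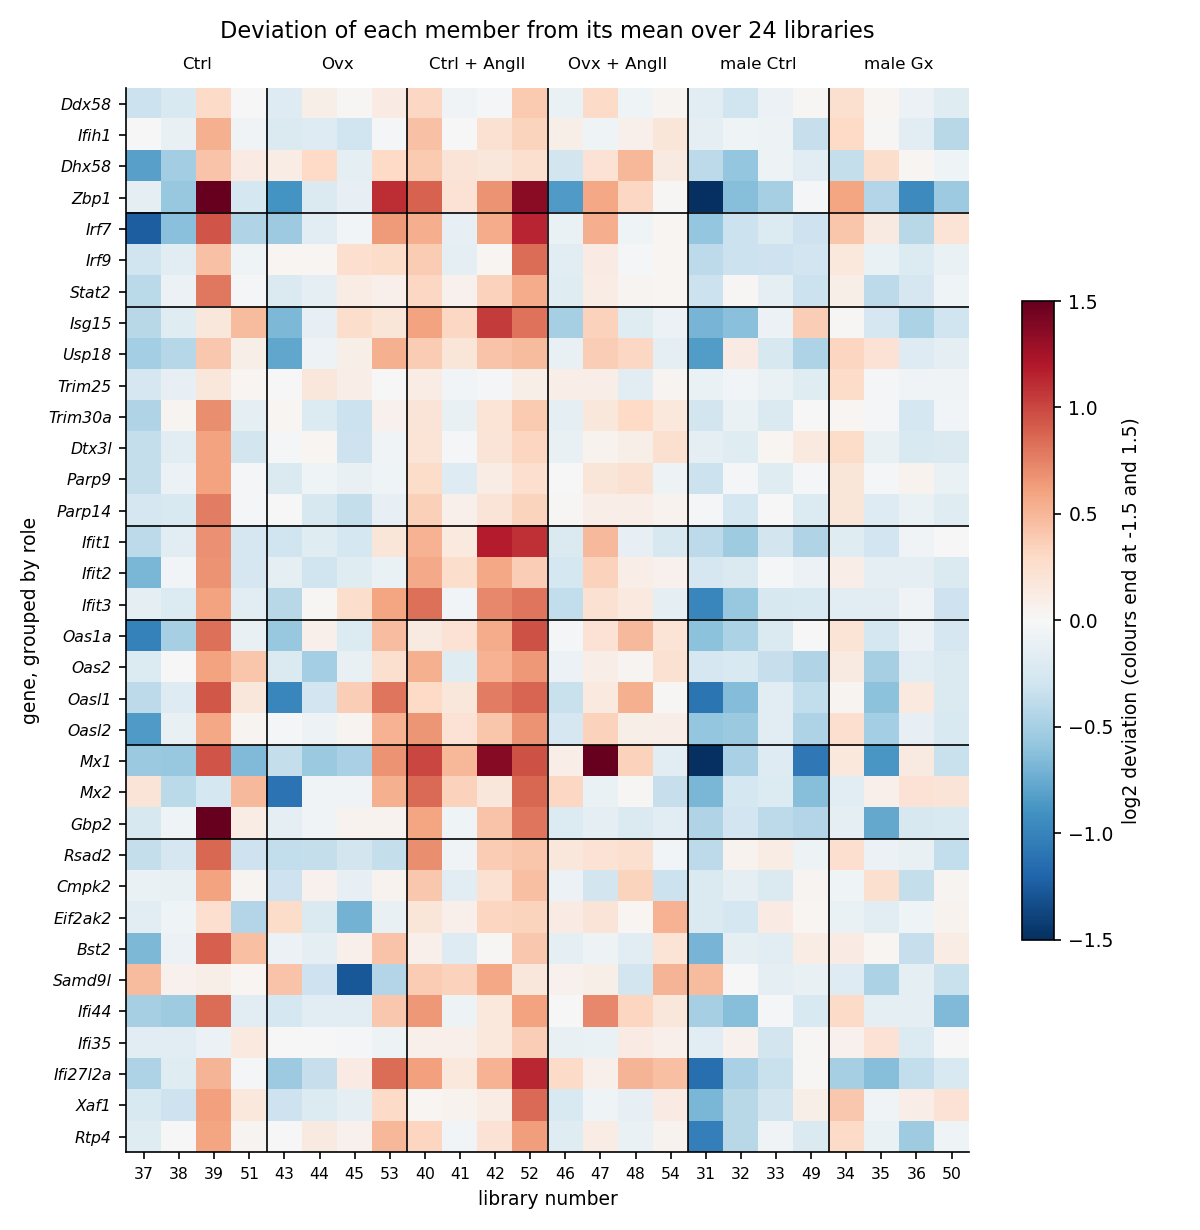
Log2 deviation of each member (rows, grouped by role) from its mean over 24 libraries, for each library (columns, by group); red is above and blue below the mean, and colours end at -1.5 and 1.5. Libraries 39 and 52 are red for most rows, library 31 is blue for most, and Samd9l, Ifi35 and Mx2 follow other columns than the rest.

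No member passed an adjusted p of 0.05 (limma, Benjamini-Hochberg over all genes tested) for AngII in control females, where 8.18% of all genes did. Without Ctrl library 39, 14 members rose with AngII, against 5.68% of all genes. Library 39 was set apart by the members' own values, so leaving it out raised the differences of most members by construction. Shares of all genes in fits without it come from genes not chosen in this way and are no like standard for the members. The members' log2 differences between Ctrl + AngII and Ctrl had a median of 0.32 with all libraries and of 0.48 without library 39, beside a median near 0 over all genes. In the fit of all libraries 32 of 34 members had a positive difference, as did 48.9% of all genes, and 10 members had a positive difference at an unadjusted p under 0.05, as did 11.3% of all genes. With all 4 Ctrl libraries no member had its 4 Ctrl + AngII values above all Ctrl values (6.83% of all genes had), and without library 39 it was so for 18 members (10.6% of all genes). Among single libraries, the number of members called under AngII in control females therefore depended most on library 39. Leaving out library 41, 47 or 51 instead passed 2, 1 and 1 members, beside 8.01%, 7.26% and 7.11% of all genes. On the values as deposited, before rescaling, the members' median was 0.0435 and that of all genes -0.28.

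Among the transcription factors, Irf7, the master regulator that amplifies type I interferon production, was at 188, 287, 852 and 324 in Ctrl (libraries 37, 38, 39 and 51) and at 645, 408, 652 and 982 in Ctrl + AngII (libraries 40, 41, 42 and 52). The groups overlapped through library 39 alone, since the lowest treated value lay above the other 3 Ctrl values. The log2 difference was 0.87 (standard error 0.35, adjusted p = 0.139, limma), and without library 39 it was 1.30 (standard error 0.27, adjusted p = 0.0056). Stat2, a subunit of the ISRE-binding complex, was at 580.3, 722, 1326 and 749.6 in Ctrl and at 956, 799.7, 978 and 1125 in Ctrl + AngII. Here library 39 exceeded every treated library, and the difference of 0.25 became 0.49 without it (adjusted p = 0.43 and 0.0121, limma). Irf9, which brings that complex to DNA, differed by 0.30 and by 0.45 without library 39 and passed in neither fit.

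The IFIT family encodes proteins that bind viral RNA and block its translation. Ifit1 was at 172, 203, 367 and 191 in Ctrl and at 326, 251, 516 and 486 in Ctrl + AngII. Of the members it came nearest to the threshold with all libraries, at 0.76 (standard error 0.24, adjusted p = 0.0585, limma), and without library 39 it rose by 1.004 on the log2 scale (adjusted p = 0.0072). Ifit2 was at 344, 538, 884 and 467 in Ctrl and at 822, 669, 829 and 719 in Ctrl + AngII, a difference of 0.52 (adjusted p = 0.106, limma) that became 0.77 without library 39 (adjusted p = 0.0021). Ifit3 was at 438, 418, 736 and 431 in Ctrl and at 861, 471, 797 and 843 in Ctrl + AngII. The low treated value is that of library 41, the lowest of its group for most members. Its difference was 0.56 (adjusted p = 0.144, limma) and 0.75 without library 39 (adjusted p = 0.0323). Transcripts of Ifit3 and its neighbour Ifit3b share 1700 aligned bases at 97.8% identity, so their separate levels are uncertain.

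The Mx proteins are GTPases that trap viral nucleocapsids, and Gbp2 is a guanylate-binding GTPase induced by interferon gamma as well. Mx1 was at 23.2, 23.1, 67.6 and 21.6 in Ctrl and at 70.4, 49.6, 90.7 and 68.1 in Ctrl + AngII. Its difference of 1.16 was the widest of the 34 members (standard error 0.41, adjusted p = 0.091, limma), and it was 1.55 without library 39 (standard error 0.38, adjusted p = 0.0144). Its mean of 40.6 over all libraries was the lowest of the 34 members, and 843 aligned bases at 95.3% identity are shared with Mx2. Mx2 differed by 0.55 and by 0.46 without library 39, and was 1 of 4 members whose highest Ctrl value was not in that library. Gbp2 was at 568, 645, 3113 and 726 in Ctrl and at 1014, 643, 907 and 1173 in Ctrl + AngII. Library 39 alone turned its direction, from 0.50 without that library (adjusted p = 0.0286, limma) to -0.06 with it (adjusted p = 0.94).

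The OAS enzymes make the second messenger that activates RNase L, and the OAS-like proteins modulate sensing. Oas1a was at 82.1, 118, 297 and 154 in Ctrl and at 183, 194, 246 and 324 in Ctrl + AngII, a difference of 0.67 (adjusted p = 0.19, limma) that became 1.01 without library 39 (adjusted p = 0.0131). Its transcript shares 1861 bases at 97.6% identity with that of Oas1g. Oas2 was at 551, 637, 967 and 844 in Ctrl and at 914, 557, 911 and 992 in Ctrl + AngII, so that the groups overlapped with and without library 39, and it passed in neither fit (0.17 and 0.30). Oasl2 rose only in the fit without library 39 (0.80, adjusted p = 0.0130) and Oasl1 in neither.

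Isg15, which encodes an interferon-induced modifier resembling ubiquitin, was at 87.9, 104, 133 and 165 in Ctrl and at 179.6, 147, 244 and 208 in Ctrl + AngII. The highest Ctrl value was that of library 51, and the difference was 0.68 (standard error 0.24, adjusted p = 0.0858, limma), with 0.74 without library 39 (adjusted p = 0.0802). It passed when library 51 was left out (0.84). Its transcript shares 482 bases at 95.2% identity with that of AC151275.1. Usp18, the protease that removes ISG15 and damps the receptor, differed by 0.48 and by 0.65 without library 39 and passed in neither fit. The E3 ligase gene Dtx3l and the ADP-ribosyltransferase gene Parp14 rose without library 39, by 0.44 (adjusted p = 0.0098, limma) and by 0.41 (adjusted p = 0.0073), from 0.23 and 0.17 with it. Trim25, the ligase that ubiquitinates RIG-I, varied least between libraries, at 1123, 1224, 1502 and 1361 in Ctrl and at 1447, 1295, 1316 and 1416 in Ctrl + AngII, with a difference of 0.08 (adjusted p = 0.647, limma).

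The sensors detect the nucleic acid itself. Ddx58, which encodes RIG-I, was at 459, 489, 699 and 572 in Ctrl and at 711, 552, 565 and 751 in Ctrl + AngII, and the groups overlapped with and without library 39 (0.22 and 0.34, passing in neither fit). Ifih1, the gene of MDA5, and Zbp1, the sensor of Z-form nucleic acid, differed by 0.16 and 0.52, and by 0.30 and 1.11 without library 39. Among the other effectors, Rsad2, whose product viperin makes a chain-terminating nucleotide, was at 491, 529.9, 1151 and 510.4 in Ctrl and at 1026, 608, 824 and 843 in Ctrl + AngII. Its 3 Ctrl values outside library 39 lay close together, and it rose by 0.67 without that library (standard error 0.12, adjusted p = 0.0022, limma) against 0.38 with it (adjusted p = 0.291). Ifi27l2a and Ifi44 rose in the fit without library 39 (0.83 and 0.73), whereas Bst2, the tether of budding virions, was at -0.07 with all libraries and 0.18 without library 39.

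The 14 members called higher in the fit without library 39 were not called with all libraries, and their own values had set that library apart. Of them, 4 differed by at least 1 on the log2 scale, the fold threshold of the study (Ifit1, Irf7, Mx1 and Oas1a). The share of all genes, 1.07%, is no like standard for them. These 14 included all 3 members of the IFIT family and none of the 4 sensors. The largest medians by role without library 39 were those of the IFIT family (0.77) and the OAS family (0.73), and the smallest that of the other effectors (0.36). With all libraries the order differed. The IFIT family (0.56) and the Mx and guanylate-binding GTPases (0.55) were then largest, and the ISG15, ubiquitin or ADP-ribose enzymes smallest (0.17).

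**Figure D3:**
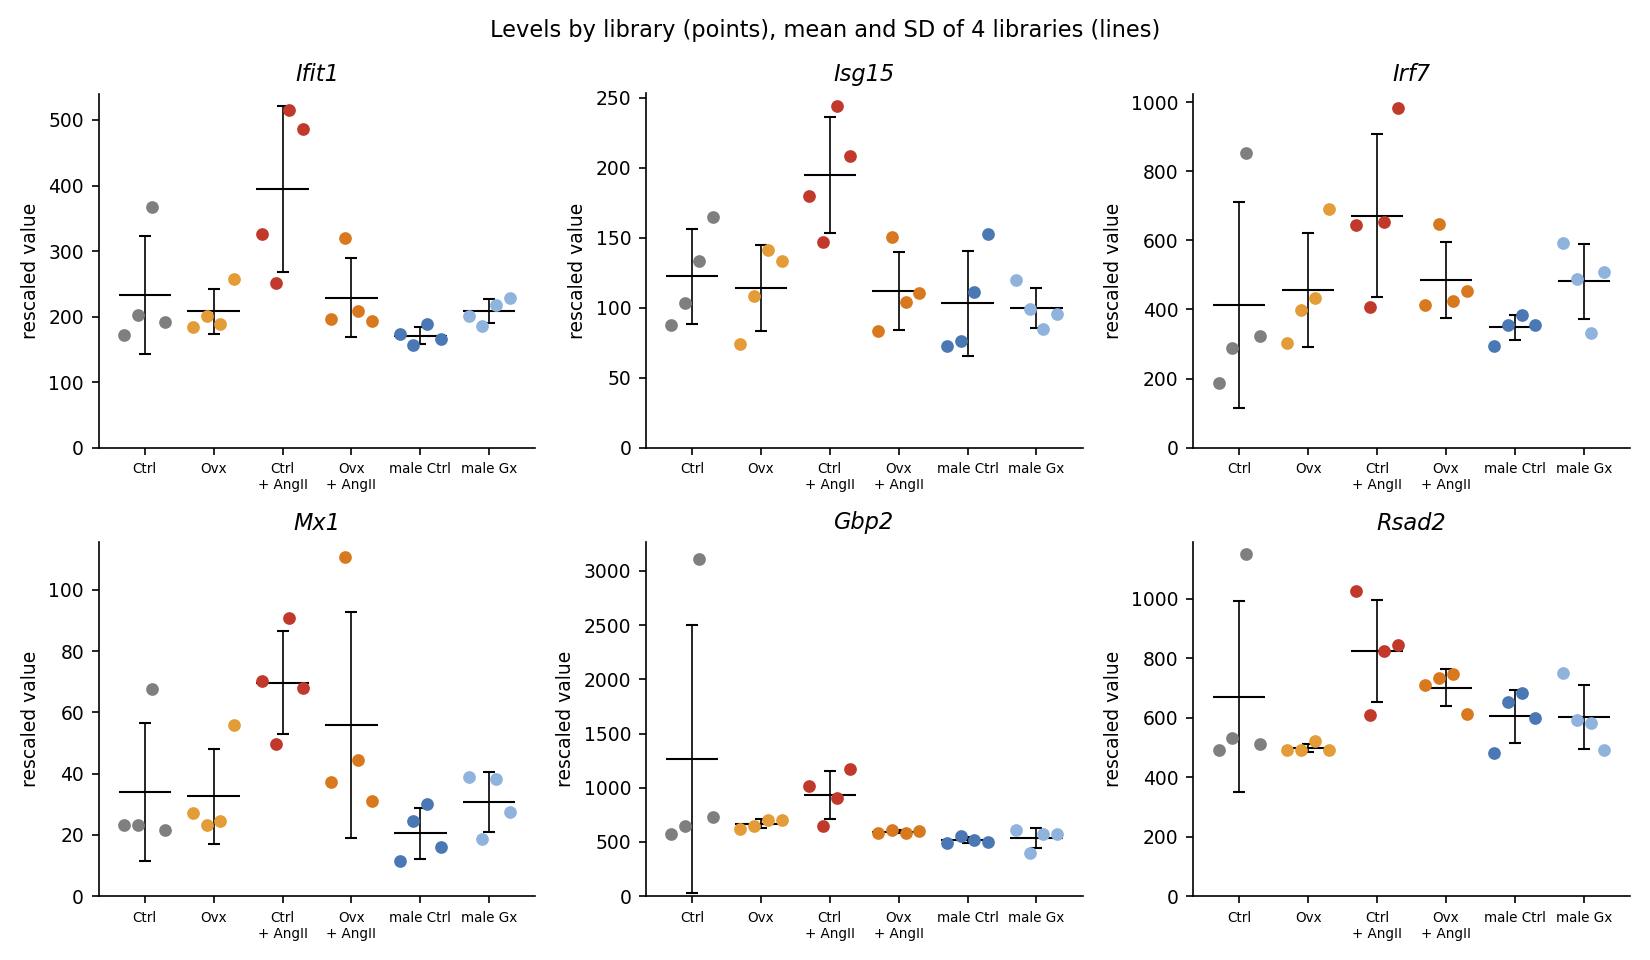
Rescaled values of Ifit1, Isg15, Irf7, Mx1, Gbp2 and Rsad2 (vertical axes, from 0) in each library (points) by group, with the mean and SD of 4 libraries. In 5 of the 6 panels a single Ctrl point, library 39, lies above the other 3 (3113 against 568 to 726 for Gbp2), and for Isg15 it is library 51.

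No member passed the adjusted p for AngII in Ovx females, where 10.2% of all genes did, and the members' median difference was 0.12 against 0.32 in control females. Of 34 members 25 had a positive difference (51.7% of all genes had), and 2 had one at an unadjusted p under 0.05, as did 12.8% of all genes. Rsad2 was at 489.8, 491, 519.8 and 491 in Ovx (libraries 43, 44, 45 and 53) and at 709, 734, 748 and 612 in Ovx + AngII (libraries 46, 47, 48 and 54). The groups did not overlap, and the difference was 0.49 (standard error 0.20, adjusted p = 0.131, limma; exact permutation p = 0.0286, the smallest that 4 against 4 libraries allow). Parp14 was the other member with all treated values above the untreated ones, and 7.63% of all genes had this pattern. Gbp2 was at 615, 648, 702 and 701 in Ovx and at 586, 607, 579 and 605 in Ovx + AngII, all treated values lower, as for 8.84% of all genes, with a difference of -0.16 (adjusted p = 0.831, limma).

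Ctrl library 39 enters this fit through the shared estimate of spread. Without it Rsad2 passed in Ovx females with the same difference (0.49, standard error 0.11, adjusted p = 0.0093, limma), where 11.1% of all genes passed. The sensor kinase gene Eif2ak2, whose product PKR stops translation, differed by 0.41 in Ovx females (adjusted p = 0.137, limma), with an Ovx range of 257 to 512 and an Ovx + AngII range of 431 to 605. Samd9l, a restriction factor that halts translation, was at 720.0, 432, 221 and 394 in Ovx and at 559, 567, 443 and 759.8 in Ovx + AngII. The groups overlapped widely, and the difference was 0.49 (adjusted p = 0.202, limma). Mx1 was at 27.0, 23.3, 24.6 and 55.8 in Ovx and at 37.3, 111, 44.4 and 31.1 in Ovx + AngII, where library 47 alone was above 50, and its difference was 0.66 (adjusted p = 0.33, limma).

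**Figure D4:**
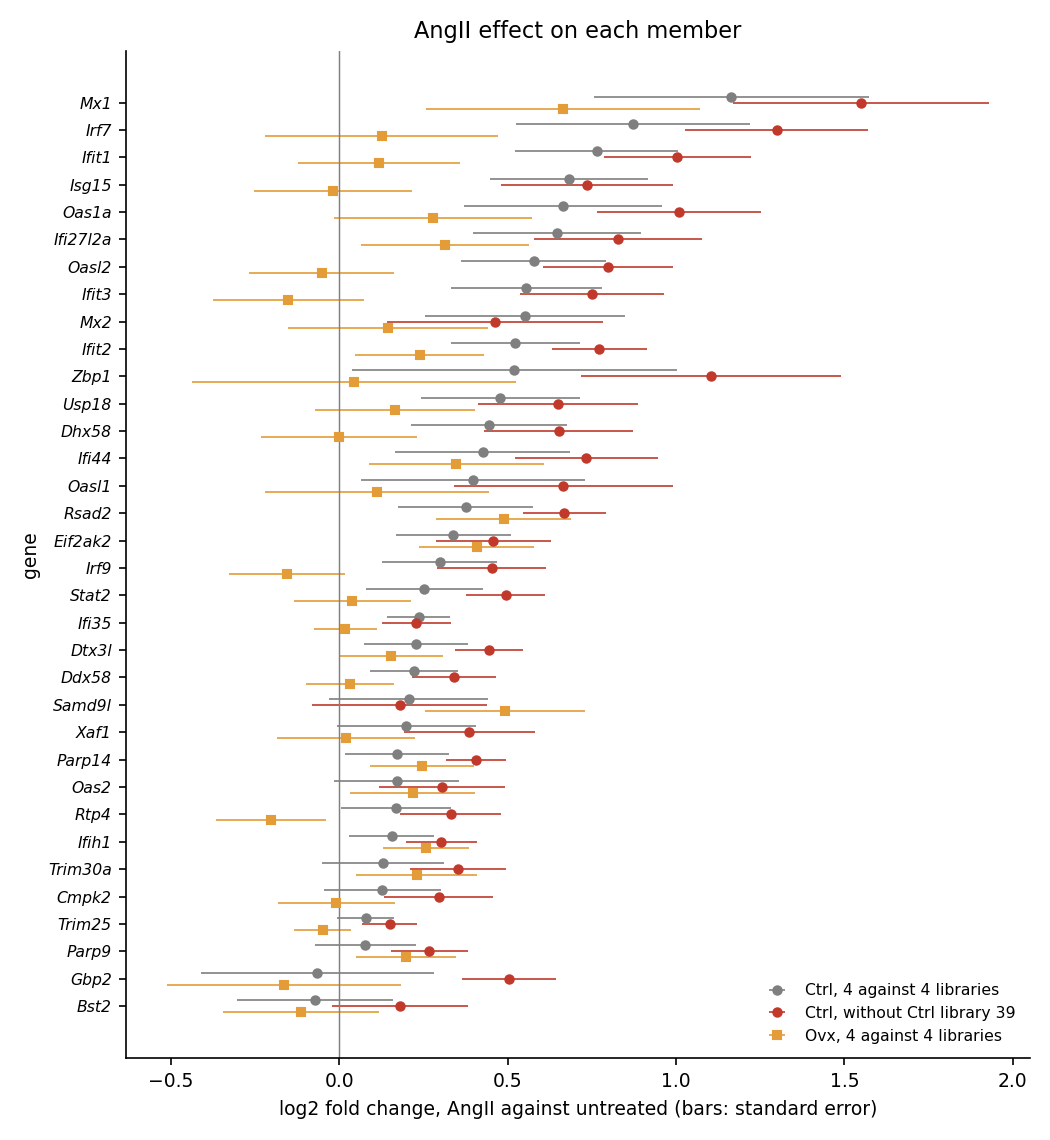
Log2 fold change between AngII and untreated libraries (horizontal axis, bars are standard errors) for each member (vertical axis), in control females with all libraries (grey circles), in control females without Ctrl library 39 (red circles) and in Ovx females (orange squares). Most red points lie to the right of the grey ones, Gbp2 from -0.06 to 0.50 and Zbp1 from 0.52 to 1.11, and the orange squares centre near 0.12.

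The interaction asks whether AngII acted differently in Ovx and in control females. No member passed (0.058% of all genes did, 8 in number), nor did any without library 39, where 0.152% of all genes passed. The median was -0.22, and -0.42 without library 39, a negative value standing for a smaller AngII difference in Ovx mice. For 26 of 34 members the interaction was negative (49.3% of all genes), and for Ifit3 and Isg15 it was so at an unadjusted p under 0.05, as for 5.49% of all genes. With all libraries Irf7 had the widest interaction (-0.75, standard error 0.49, adjusted p = 0.636, limma), which was -1.17 without library 39 (standard error 0.37, adjusted p = 0.207). It was at 304, 398, 433 and 692 in Ovx and at 412, 649, 424 and 453 in Ovx + AngII. In both Ovx groups 1 library stood above the other 3 for this gene, library 53 and library 47. Ifit3 followed with -0.71 (adjusted p = 0.442, limma), at 363, 490.1, 580.5 and 729.7 in Ovx and at 374, 566, 535 and 437 in Ovx + AngII, and Isg15 with -0.70 (adjusted p = 0.477, limma). A difference between the AngII responses of both kinds of females was therefore not shown for any member, and the interval for the interaction of Isg15 ran from -1.40 to -0.0022 (95%). Each group holds 1 library numbered apart from the rest (49 to 54), and without these the median difference with AngII was 0.21 in control and 0.27 in Ovx females and the median interaction 0.01.

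Among infused females, all 34 members were lower in Ovx + AngII than in Ctrl + AngII, against 50.2% of all genes, and the median difference was -0.28. The members moved together between libraries, so their signs are not separate observations. When library 52, 46 or 40 was left out, 5, 4 or 3 members were higher instead. This comparison does not use the Ctrl libraries but shares the Ctrl + AngII group with the first one and the Ovx + AngII group with the second. No member passed the adjusted p, which 1.01% of all genes did. Isg15, Ifit1 and Ifit3 differed at an unadjusted p under 0.05, as did 5.96% of all genes in this direction. Isg15 was at 82.9, 150.3, 104 and 110.4 in Ovx + AngII against 179.6, 147, 244 and 208 in Ctrl + AngII, a difference of -0.80 (standard error 0.24, adjusted p = 0.132, limma). The groups overlapped by a single value, library 47 above library 41. Ifit1 was at 196, 319, 208 and 193 in Ovx + AngII, and here too library 47 was the only value inside the range of the other group (-0.76, adjusted p = 0.17, limma). For Gbp2 the groups did not overlap, with all Ovx + AngII values between 579 and 607 and all Ctrl + AngII values at 643 or more, as for 3.54% of all genes in this direction. Its difference of -0.62 had an adjusted p of 0.53 (limma), and of 0.0207 when library 39 no longer widened the estimate of spread (1.33% of all genes passed then). Trim25, Eif2ak2 and Parp9 were within 0.03 of 0.

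In untreated females the members of the Ovx group were spread around those of Ctrl. The median difference was -0.09 with 14 positive members (48.8% of all genes were positive), and without library 39 the median turned to 0.14. No member passed the adjusted p (0.109% of all genes did), and Samd9l and Ifih1 were lower at an unadjusted p under 0.05, as were 6.17% of all genes. For Ifih1 the difference was -0.28, and -0.13 without library 39 (adjusted p = 0.369 and 0.581, limma). Samd9l was at 741, 561, 567 and 544 in Ctrl and, as given above, at 221 to 720.0 in Ovx, a difference of -0.56 (standard error 0.24, adjusted p = 0.326, limma). Its pattern over libraries differed from that of the other members, with library 45 the lowest of all and library 37 high. Dhx58, the regulator of RIG-I and MDA5 signalling called LGP2, had the highest positive difference with all libraries (0.34, adjusted p = 0.584, limma). Without library 39 it was 0.55, and that of Irf7 was 0.75 against 0.32 with it.

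In males the median difference between male Gx and male Ctrl was 0.15, with 31 of 34 members positive (50.8% of all genes), none past the adjusted p (0.0797% of all genes) and 1 higher at an unadjusted p under 0.05, as for 4.33% of all genes. That member was Xaf1, an antagonist of inhibitors of apoptosis, at 114, 138, 152 and 195 in male Ctrl (libraries 31, 32, 33 and 49) and at 244, 177, 197 and 213 in male Gx (libraries 34, 35, 36 and 50). The groups overlapped by a single library on each side, and the difference was 0.49 (standard error 0.20, adjusted p = 0.493, limma). Irf9 and Mx2 had all male Gx values above all male Ctrl values, as 2.38% of all genes had, and Samd9l all below, as 2.67% had. Irf9 was at 433, 456, 459.5 and 469 in male Ctrl and at 638, 531, 494 and 532 in male Gx (0.27, adjusted p = 0.653, limma). Library 34 had the highest value of male Gx for 24 of 34 members, and library 31 the lowest of male Ctrl for 21.

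Between the sexes, 32 of 34 members were lower in male Ctrl than in female Ctrl (51.1% of all genes), with a median of -0.25 that became -0.09 without library 39. None passed the adjusted p (1.2% of all genes did), and 5 were lower at an unadjusted p under 0.05 (Oas2, Gbp2, Rtp4, Ifit3 and Oasl1), as were 6.28% of all genes. Oas2 was at 531, 541, 497 and 465 in male Ctrl, all below the lowest female Ctrl value of 551, a difference of -0.53 (standard error 0.17, adjusted p = 0.158, limma). Ifit3, at 245, 326, 409 and 414 in male Ctrl, and Gbp2, at 493, 552, 515 and 497, also lay wholly below the female Ctrl libraries, with and without library 39. This pattern was held by 2.62% of all genes with all libraries. For Gbp2 the difference was -0.89 with library 39 and -0.32 without it. That of Ifit3 was -0.53 and -0.33, that of Oasl1 -0.70 and -0.43, and that of Oas2 became -0.39 without library 39. On the values as deposited, which were lower as a whole in male Ctrl by a log2 shift of -0.36, 28 members passed at a median of -0.61, beside 67.3% of all genes called lower and a median of -0.36 over all genes. The difference of the gonadectomy effects between males and females had a median of 0.23 (0.03 without library 39). It was positive for 32 members (51.4% of all genes), passed for none (0.00725% of all genes, 1 gene) and was positive at an unadjusted p under 0.05 for Xaf1 only (2.91% of all genes).

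The genes around the members were followed through lists of their roles. Of 11 interferon genes listed, 10 were listed at 0 in all 24 libraries, and Ifng, the gene of interferon gamma, was above 0 in 3 libraries with a highest value of 4.28. Of 9 receptor and Janus kinase genes, Jak1 and the interferon-gamma receptor chain gene Ifngr2 fell with AngII in control females, by 0.30 and 0.22 on the log2 scale (adjusted p = 0.0022 and 0.0174, limma). In that comparison 8.18% of all genes passed in either direction. Ifngr2 also fell in Ovx females, by 0.18 (adjusted p = 0.041, limma), where 10.2% of all genes passed. These 2 genes varied little, Jak1 between 4023 and 5647 over all libraries, and both calls held without library 39. None of the 7 further transcription factors passed in either AngII comparison. Of the 11 upstream sensors and adaptors and the 9 suppressors, none passed with AngII in control females with all libraries. Without library 39 the endosomal RNA sensor gene Tlr3, the trafficking gene Unc93b1 and the RNA editing gene Adar rose in control females, where 5.68% of all genes rose. Tlr3 rose in Ovx females too in that fit, where 5.6% of all genes rose. Between the sexes, the interferon lambda receptor gene Ifnlr1 and Mavs, the adaptor of RIG-I, were higher in male Ctrl by 0.65 and 0.27 (adjusted p = 0.0453 and 0.0374, limma). There 1.2% of all genes passed, and neither of these genes did without library 39.

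Of 33 further interferon-stimulated genes tested, none passed in control females with all libraries (limma), and 5 rose without library 39 (Lgals3bp, Slfn2, Sp100, Tor3a and Uba7), with medians of 0.17 and 0.33, where 5.68% of all genes rose in that fit. In Ovx females Ifi203 rose by 0.49 (adjusted p = 0.0292, limma), where 10.2% of all genes passed. The fit without library 39 passed Ifi203 and Slfn5 there, both higher, where 5.6% of all genes rose. The 22 interferon-gamma type genes had a median of 0.02 with AngII in control females with all libraries and of 0.43 without library 39. In that fit 6 rose (Gbp3, Gbp5, Irgm2, Psmb10, Psmb8 and Tap1), beside 5.68% of all genes. All 22 were highest of Ctrl in library 39, so leaving it out raised their differences by construction. Like the members, they were lower in Ovx + AngII than in Ctrl + AngII in the median (-0.33), and none passed there with all libraries. When library 39 was left out, Gbp5 was lower in that comparison, as was Ifit3b of the further genes (0.761% of all genes were lower). Gbp6 rose with AngII in Ovx females in that fit, where 5.6% of all genes rose.

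Macrophages express many of these genes, and their markers were high in several of the libraries in which the members were high. Their mean deviation was 0.53 in Ctrl library 39, 0.45, 0.10, 0.35 and 0.30 in Ctrl + AngII libraries 40, 41, 42 and 52, and -0.36 in Ctrl library 37, the lowest Ctrl library for 23 members. All 15 macrophage markers were tested, with a summed value of 9382 to 15827 in Ctrl, 11620 to 14795 in Ctrl + AngII, 9360.0 to 11982 in Ovx and 10912 to 13134 in Ovx + AngII. The complement gene C1qa rose with AngII in control females by 0.44 (adjusted p = 0.0416, limma), where 8.18% of all genes passed. Without library 39, in which 14 of the 15 were above the other Ctrl libraries, 8 of the 15 markers rose, beside 5.68% of all genes. None of the 15 passed in Ovx females or in the interaction, with or without library 39. With all libraries their median difference with AngII was 0.29 in control and 0.23 in Ovx females. Of 7 fibroblast markers 4 rose with AngII in control and 3 in Ovx females, where 8.18% and 10.2% of all genes passed in either direction. Among those that rose was the collagen gene Col1a1, by 1.29 and 1.04 on the log2 scale (adjusted p = 2.97e-05 and 0.000207, limma). Of 4 dendritic cell markers tested only Cd209a passed with AngII in control females, where it fell by 2.25, while the median of the 4 was 0.21. Of 7 ventricular cardiomyocyte markers only the troponin gene Tnni3 passed, falling by 0.27 in control and by 0.32 in Ovx females. The medians of these 7 were -0.05 and -0.15. Of 8 endothelial markers only Kdr passed between Ovx + AngII and Ctrl + AngII, where it was higher by 0.29 (adjusted p = 0.0433, limma). There 1.01% of all genes passed. None of the 9 lymphocyte, 3 neutrophil and 5 erythroid markers tested passed in these 3 comparisons. Of single leukocyte markers, Siglech (plasmacytoid dendritic cells) was at no more than 25.1, Ncr1 (NK cells) at no more than 9.06 and Ly6g (neutrophils) at no more than 3.22. Other genes of their lists were higher. In Ctrl all listed lymphocyte markers summed to 128 to 419 and all listed dendritic cell markers to 50.8 to 89.2. In Ovx these sums were 220 to 327 and 89.1 to 133. In Ctrl + AngII they were 103 to 221 and 40.3 to 83.2, and in Ovx + AngII 149 to 289 and 31.0 to 82.9. All listed neutrophil markers, tested or not, summed to 117 to 672 in Ctrl and to 147 to 232 in Ctrl + AngII. They summed to 87.6 to 133 in Ovx and to 91.0 to 188 in Ovx + AngII. Erythroid genes had a mean deviation of 2.40 in library 39, 1.42 in library 42 and between -0.90 and -0.66 in the 4 Ovx libraries. The part of macrophages, blood or other cells in the member values was not tested.

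**Figure D5:**
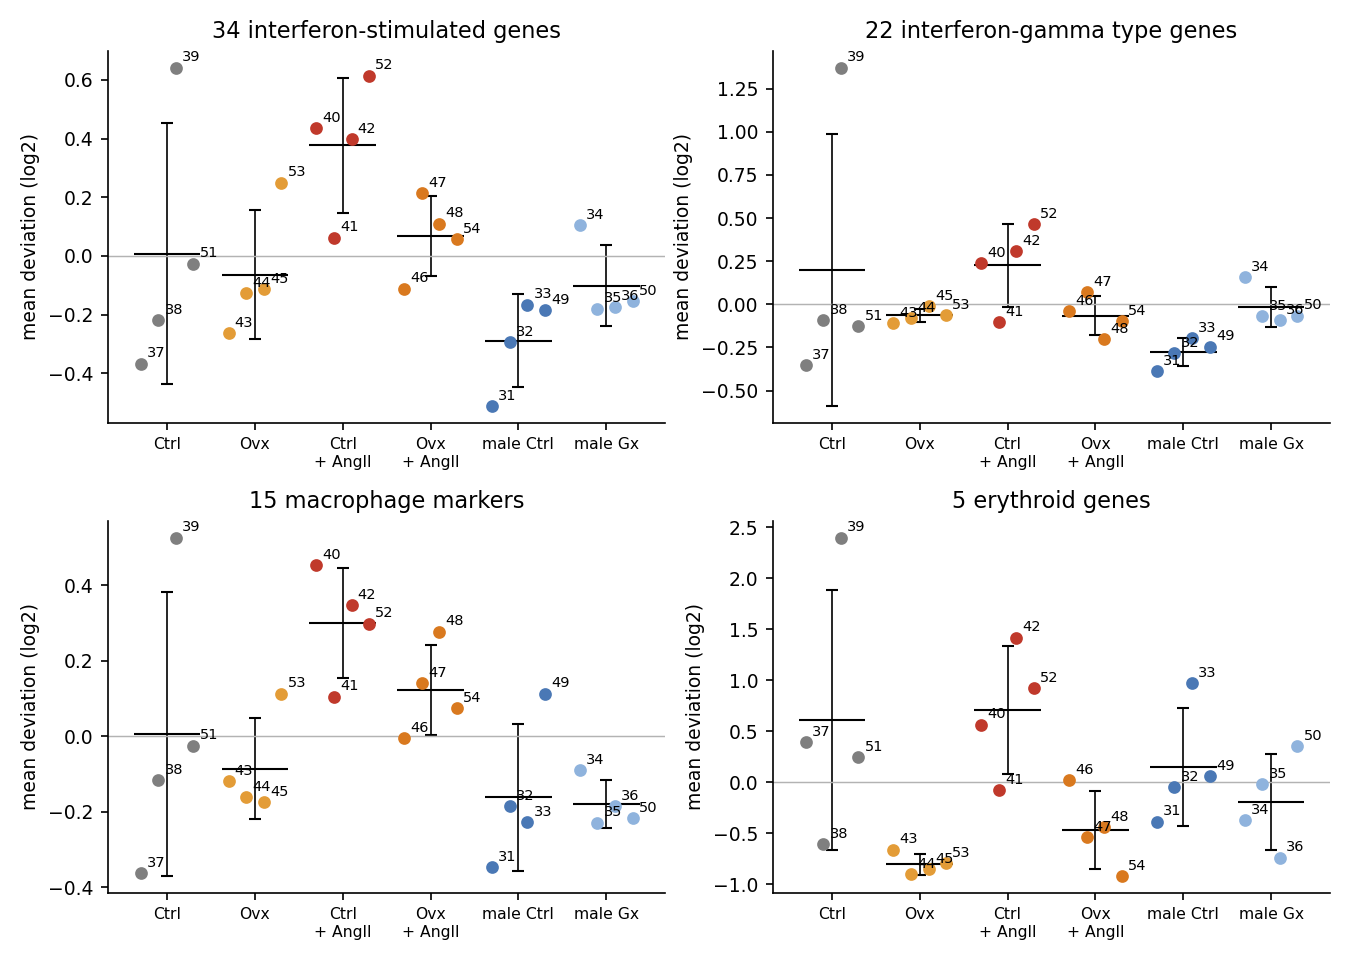
Mean log2 deviation from the mean over 24 libraries (vertical axes, each with its own range) of the 34 members, 22 interferon-gamma type genes, 15 macrophage markers and 5 erythroid genes, for each library (points with numbers) by group, with mean and SD of 4 libraries. Library 39 is the highest point of all 4 panels, at 0.64, 1.37, 0.53 and 2.40.

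Outside all lists, the 10 genes (of those averaging 50 or more) whose pattern over the 24 libraries was most like the mean deviation of the members were Mpeg1, Laptm5, Siglec1, Ctss, Cfb, Spi1, Itgb2, H2-D1, Cotl1 and Lcp1. Their Pearson r was 0.884 to 0.914 over 24 libraries and 0.856 to 0.899 without library 39. These values describe libraries that share groups and cell makeup, and no p is given. Mpeg1, the macrophage pore protein perforin-2, was the closest at 0.914, at 1271 in library 39 against a mean of 777. Spi1 is the transcription factor PU.1 of the myeloid lineage, Siglec1 the sialoadhesin of macrophages, Laptm5, Itgb2 and Lcp1 are leukocyte genes, and H2-D1 is a class I antigen-presenting molecule.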

How the data were processed

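The mRNA of the LV was sequenced from 24 pools of RNA from 2 mice each, 4 pools in each of 6 groups that were read from the sample labels. Alignment by the authors used STAR and the UCSC build mm10, and DESeq2 then scaled the gene values, both run as BaseSpace applications (Salmon is named as well, and versions are not given in the sources used here). The deposited values are therefore a normalized signal per gene, not whole reads, so that no count model was fitted and the reads behind each value could not be recovered. Between groups the deposited values were shifted as a whole (log2 shift of male Ctrl against Ctrl: -0.36), and they were rescaled by the median of ratios over the 24 libraries. Left out were 14 entries whose symbols had turned into dates (0.0552% of the summed values) and 1 without a name, and 0 columns lacked a sample.

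Tests were run on log2(value + 1) in limma (version 3.58.1, under R 4.3.3), whose empirical Bayes step used a variance trend, for the genes with a mean of at least 10, and p-values were adjusted after Benjamini-Hochberg over all of them at 0.05. The 16 female libraries were fitted for the 5 comparisons among females and all 24 for the other 3. A single gene was also tested by a two-sided exact permutation of 4 against 4 libraries (70 labellings). The code was tested on simulated data. No 2 libraries of a group were alike enough to be 1 library deposited again, with a median absolute log2 difference of 0.128 to 0.212 per gene.

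Values of every library are printed for the most abundant member of each role, for the 3 members with the largest AngII differences and interactions and for any past the adjusted p, and other members were added after their values were seen. The members, lists and marker genes were chosen with earlier results of these data known. Near copies are pairs of GENCODE M21 transcripts that align at 95% identity or more. Alternatives were other pseudocounts (0.5 and 5), other filters (a mean of 50, or none), the values as deposited, equal sums per library, no variance trend, library quality weights, the other set of libraries in the fit and leaving out each library, or libraries 49 to 54. One gene of the transcription factor list is not reported here.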

Additional observations from a re-analysis of the deposited data

Results flagged for a closer look

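Of 204 sets of 4 values (34 members in 6 groups), 16 held a library far from the other 3 by Dixon's criterion, which chance gives in about 1 in 20 sets, and 6 of the 16 were in Ctrl library 39. There Gbp2 stood at 3113, Rsad2 at 1151, Ifit3 at 736, Ifih1 at 542, Zbp1 at 305 and Mx1 at 67.6, each above the other Ctrl libraries. Also in Ctrl, library 37 was high for Samd9l at 741. In Ctrl + AngII, library 41 was low for Ifit3 at 471 and for Oas2 at 557, and library 52 was high for Xaf1 at 333. In Ovx, library 53 was high for Mx1 at 55.8 and for Ifi44 at 164, and library 45 for Rsad2 at 519.8. In Ovx + AngII, library 47 was high for Ifit1 at 319. In male Gx, library 34 was high for Trim25 at 1619 and library 35 low for Gbp2 at 397, and the mean deviation of the 34 members was high in library 34, at 0.10. For Parp9 every Ovx library lay below the Ctrl mean and every male Gx library above the male Ctrl mean, and the effects differed by 0.31 on the log2 scale (0.12 without library 39). The Ctrl mean of 622 contains library 39 at 895, and against the mean of the other 3 Ctrl libraries (531) 3 of the 4 Ovx libraries lay above, so that the pattern rests on library 39. The interaction term did not pass for Parp9 (adjusted p = 0.867, limma). The causes of these values were not tested.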

How the results depend on the processing

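Library quality weights, which give less weight to libraries with a wide spread, took the members past the adjusted p from none to 6 for AngII in Ctrl (2 with a log2 change of at least 1), beside 9.29% of all genes, and to 3 for AngII in Ovx, beside 17.9%. The fit of all 24 libraries passed 1 member for AngII in Ctrl (Ifit1), beside 8.65% of all genes. With the values as deposited, the median for AngII in Ctrl was 0.0435, Ifi35 in that comparison turned to -0.0389, and between male and female Ctrl 28 members passed (3 with a log2 change of at least 1) at a median of -0.61, beside 67.6% of all genes past the threshold and 1.86% lower by at least 1. These changes go with shifts in the overall level of the deposited values of -0.28 (Ctrl + AngII minus Ctrl) and -0.36 (male Ctrl minus Ctrl). The longer ISRE form was found in 29.2% of the members with a promoter, against 50.0% for the core.

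Leaving out 1 library at a time, the members past the adjusted p ranged from 0 to 14 for AngII in Ctrl (0 to 4 with the fold threshold), with the median between 0.23 and 0.48. They ranged from 0 to 2 for AngII in Ovx (median -0.01 to 0.25), from 0 to 1 for Ovx in untreated females (-0.19 to 0.14) and from 0 to 1 for Ovx under AngII (-0.40 to -0.20). The count stayed at 0 for the interaction of AngII and Ovx (-0.42 to -0.09), Gx in males (0.08 to 0.22), male against female Ctrl (-0.39 to -0.09) and the interaction of Gx and sex (0.03 to 0.36). Apart from library 39, members passed for AngII in Ctrl without library 51 (Isg15, 0.84), without library 41 (Ifit1, 0.96, and Ifit3, 0.76) and without library 47 (Ifit1, 0.76), where 7.11%, 8.01% and 7.26% of all genes passed. Without library 43, 2 members passed for AngII in Ovx, among them Eif2ak2 at 0.57, beside 12.7% of all genes, and Samd9l for Ovx in untreated females at -0.84, beside 2.58%. The cause of these changes was not tested.

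In all, 1381 values under other settings kept their direction and their side of the threshold or count, 29 newly passed the threshold, 18 moved and 1 turned direction. No paired analysis was possible because the groups share no replicate numbers. With 4 pools a group, changes smaller than the spread between pools could not be detected.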
